A study of Rattus norvegicus with 11 samples.

Results

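Pou5f1, Nanog and Sox2, the genes of the core pluripotency transcription factors Oct4, Nanog and Sox2, were followed during the conversion of DAc2, a rat embryonic stem cell line, into hypoblast stem cells (cHypoSCs). They were found by symbol in the annotation of the platform, an Affymetrix Rat Gene 1.0 ST array, and were 3 of 14506 named genes. Each was measured by 1 of the 29214 probe sets. The feeder arm began from stem cells on a layer of mouse embryonic fibroblasts in 3 µM CHIR99021, a GSK3 inhibitor, and 0.5 µM PD0325901, a MEK inhibitor, in N2B27 medium. The feeder-free arm began on laminin in the same medium, with CHIR99021 at 3 µM, PD0325901 raised to 2 µM, and human BMP4 at 5 ng/mL. In both arms conversion took place in a medium for rat multipotent adult progenitor cells, with 2% serum and the factors LIF, EGF and PDGF. The feeder arm had 1 array at each of days 0, 7, 17 and 32. Without feeders there was 1 array at day 0, and each of days 7, 17 and 32 had 2, called biological replicates in the labels. Whether any fibroblasts remained in the feeder arm after day 0 is not given in the labels. All cells came from 1 line, and nothing states that the replicates were separate cultures, so p-values measure only the spread between these arrays. Between replicates that spread may be technical. In the limma fit with terms for day and arm it also holds any difference between the arms in their course.

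In embryonic stem cells the POU factor Oct4 and the HMG-box factor Sox2 bind DNA side by side and activate one another's genes, and the homeodomain factor Nanog shares many of their target sites. When the inner cell mass splits into epiblast and hypoblast, the layer that forms yolk sac endoderm, Nanog and Sox2 become restricted to the epiblast and Gata6 marks the hypoblast. In the mouse Oct4 persists for a time in early hypoblast cells, and it can pair with Sox17 in place of Sox2. The 3 genes were chosen by their measured course over the days, a lasting Oct4 signal beside a loss of Nanog and Sox2. Their levels over days are therefore given as a description, without a test.

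No Pou5f1 promoter was among the rat sequences used, so none is shown. The proximal promoters of Nanog and Sox2 are shown because the joint binding of Oct4 and Sox2 is written in such sequence. They are the 250 bases before each gene's start in RefSeq, build GRCr8, plus strand, at chr4:157615437-157615686 for Nanog and chr2:119464881-119465130 for Sox2. Capitals mark matches, on either strand, to the core of the octamer that Oct4 recognises, ATGCAAA, and to a Sox core, CATTGT.
Nanog: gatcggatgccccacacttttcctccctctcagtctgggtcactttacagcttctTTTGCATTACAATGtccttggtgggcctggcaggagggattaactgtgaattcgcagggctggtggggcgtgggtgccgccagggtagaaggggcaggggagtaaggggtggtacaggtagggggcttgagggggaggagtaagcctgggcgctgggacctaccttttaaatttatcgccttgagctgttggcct
Sox2: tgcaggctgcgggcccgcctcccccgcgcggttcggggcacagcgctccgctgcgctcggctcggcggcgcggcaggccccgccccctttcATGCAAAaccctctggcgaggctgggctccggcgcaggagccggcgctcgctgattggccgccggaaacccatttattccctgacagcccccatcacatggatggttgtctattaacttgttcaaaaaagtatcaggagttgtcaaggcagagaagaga
In the Nanog promoter the octamer core lay at -195 to -189 from the start and the Sox core at -187 to -182, both on the minus strand and separated by 1 base. The Sox2 promoter held an octamer core at -159 to -153 and no match to this Sox core. The octamer core was present in 4.08% of 33469 rat promoters of this length and the Sox core in 11.1%. The joined motif CATTGTNATGCAAA, which contains both cores, was found in 2 promoters, of which that of Nanog was 1. The motifs were chosen after the promoters had been seen, and a match is a description of the letters, not of binding.

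Pou5f1 stayed high on all 11 arrays, but its level was not constant. Transcripts of the 3 Pou5f1 pseudogenes in RefSeq could not be told apart from those of the gene. On the log2 scale of the deposited values the feeder arm had 14.07 at day 0, 13.94 at day 7, 12.98 at day 17 and 13.39 at day 32. The feeder-free arm had 14.93 at day 0, 13.57 and 13.72 at day 7, 13.76 and 13.84 at day 17, and 14.41 and 14.27 at day 32. Every array thus lay far above 8.10, below which 95% of the array values of 1240 olfactory and vomeronasal receptor genes fell. This bound served as a background because such cells mostly do not express these receptors. In both arms there was a dip and a partial return. The lowest day was day 17 in the feeder arm, 1.08 below its day 0, and day 7 in the feeder-free arm, 1.29 below its day 0. The feeder-free means of days 7 and 17, 13.65 and 13.80, lay about as far apart as the largest gap between replicates. Between days 17 and 32 the level went up by 0.41 in the feeder arm and by 0.54 in the feeder-free arm, where replicate arrays of a day differed by at most 0.15. At day 32 Pou5f1 was 0.68 below day 0 in the feeder arm and 0.59 below it in the feeder-free arm, a 1.60-fold and a 1.5-fold lower signal.

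Nanog, which holds stem cells in the naive state and opposes Gata6, went from the range of a strongly expressed gene to background. The feeder arm had 13.35 at day 0, 13.29 at day 7, 7.82 at day 17 and 7.13 at day 32. The feeder-free arm had 13.92 at day 0, 10.14 and 10.26 at day 7, 7.36 and 7.42 at day 17, and 7.71 and 7.08 at day 32. The 6 arrays of days 17 and 32 all lay below 8.10, so the size of the change is read against background and may be understated. The drop took place between days 7 and 17 in the feeder arm. In the feeder-free arm 3.72 of it had already passed by day 7. Between days 17 and 32 the feeder-free mean moved by less than 0.01, with a spread of 0.45 at day 32 (SD, n = 2), and the feeder arm by -0.69. The difference between day 32 and day 0 was -6.22 in the feeder arm, a 74.5-fold lower signal, and -6.52 in the feeder-free arm, a 91.8-fold lower signal. In bulk RNA, fewer cells with Nanog transcripts and less Nanog RNA per cell cannot be told apart.

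Sox2, the HMG-box partner of Oct4, followed the same days as Nanog with smaller steps. In the feeder arm it had 12.97 at day 0, 12.73 at day 7, 9.82 at day 17 and 9.77 at day 32. Without feeders it had 13.68 at day 0, 10.73 and 10.90 at day 7, 9.55 and 9.58 at day 17, and 9.55 and 9.51 at day 32. The late arrays formed a plateau, with feeder-free replicates within 0.04 of one another and a mean that moved by -0.04 between days 17 and 32. Unlike those of Nanog, the late values of Sox2 lay above 8.10, although probe sets differ in their own background. The difference between day 32 and day 0 was -3.20 in the feeder arm, a 9.18-fold lower signal, and -4.15 in the feeder-free arm, a 17.8-fold lower signal.

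**Figure D1:**
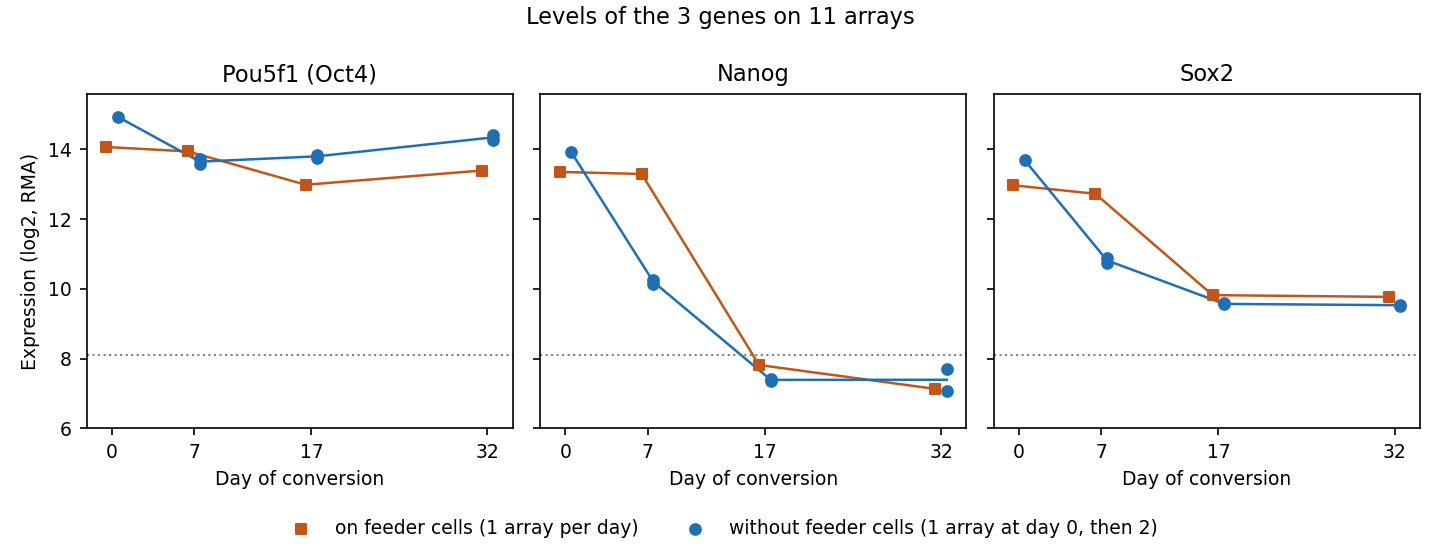
Expression on the log2 scale (vertical axis) against day of conversion (horizontal axis) for Pou5f1, Nanog and Sox2. Each point is 1 array, orange squares for the feeder arm and blue circles for the feeder-free arm, and lines join the means of a day. The dotted line marks 8.10, below which 95% of the array values of receptor genes lay. Pou5f1 stays between 12.98 and 14.93, whereas Nanog drops below the dotted line and Sox2 settles above it.

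In a fit over both arms with terms for day and arm, the change from day 0 to day 32 was -6.20 ± 0.73 (SE) for Nanog, -3.63 ± 0.46 for Sox2 and -0.57 ± 0.27 for Pou5f1, which are the values the choice of the genes rests on. The 8 group levels of Pou5f1 were in descending order those of feeder-free day 0 (14.93), feeder-free day 32 (14.34 ± 0.10, SD, n = 2), feeder day 0 (14.07), feeder day 7 (13.94), feeder-free day 17 (13.80 ± 0.06), feeder-free day 7 (13.65 ± 0.10), feeder day 32 (13.39) and feeder day 17 (12.98). Neighbours in the middle of that order, such as feeder day 0 and day 7 or feeder day 7 and feeder-free day 17, lay within 0.15 of one another, the largest gap between replicates. For Nanog the day 0 arrays of both arms and the feeder day 7 array lay at 13.29 to 13.92, the feeder-free day 7 arrays at 10.20 ± 0.08, and the groups of days 17 and 32 at 7.13 to 7.82, where the largest replicate gap of 0.64 spans most of the range. For Sox2 the same 3 levels were 12.73 to 13.68, 10.82 ± 0.12 and 9.53 to 9.82.

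The arms were then set side by side, to see how the course varied with the starting culture. The 3 genes were picked with the values of all arrays in view, so the differences between the arms are given with their standard errors from limma, with each day and arm as its own group, as a description and without a test. From day 0 to day 7 Nanog moved by -0.06 in the feeder arm and by -3.72 in the feeder-free arm, a difference of 3.66 ± 0.30. Sox2 moved by -0.24 in the feeder arm and by -2.87 in the feeder-free arm, a difference of 2.62 ± 0.19. Pou5f1 moved by -0.13 in the feeder arm and by -1.29 in the feeder-free arm, a difference of 1.16 ± 0.20. All 3 genes thus stayed nearer their day 0 level in the feeder arm over this interval. Over all genes 22% were called in this comparison, a share from which nothing is read about genes chosen in this way. At day 7 itself the single feeder array lay above both feeder-free arrays for each gene, by 3.09 ± 0.19 for Nanog, by 1.91 ± 0.12 for Sox2 and by 0.29 ± 0.13 for Pou5f1, on a day when 41.2% of all genes were called. The standard errors assume that the feeder arrays, 1 a day, and the feeder-free array of day 0 vary like the feeder-free pairs.

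The interval from day 7 to day 17 brought the opposite differences. The change of Nanog was -5.47 in the feeder arm and -2.81 in the feeder-free arm, a difference of -2.66 ± 0.27. That of Sox2 was -2.91 in the feeder arm and -1.25 in the feeder-free arm, a difference of -1.66 ± 0.18. Pou5f1 moved by -0.96 in the feeder arm and by 0.15 in the feeder-free arm, a difference of -1.11 ± 0.18. Of all genes 19.7% were called here, 8.97% of all genes in this direction, and again nothing is read from that share about the 3 genes. These differences share the day 7 arrays with those of the first interval, so both sets are given side by side only. By day 17 the arms lay 0.43 apart for Nanog and 0.25 apart for Sox2, with the feeder arm higher. At day 0 all 3 genes were lower in the feeder arm, Pou5f1 by 0.87, Sox2 by 0.71 and Nanog by 0.56. Pou5f1 was also lower there at day 17 by 0.82 and at day 32 by 0.95. These differences were not tested.

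**Figure D2:**
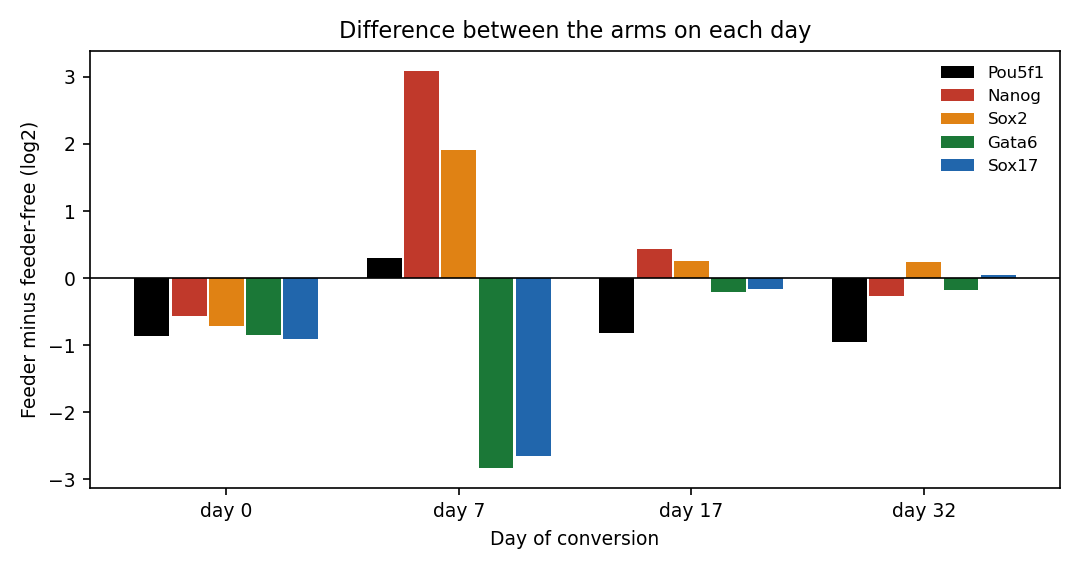
Feeder minus feeder-free level (log2, vertical axis, feeder-free mean of 1 array at day 0 and of 2 later) on each day (horizontal axis), with 1 bar per gene for Pou5f1, Nanog, Sox2, Gata6 and Sox17. At day 7 Nanog (3.09) and Sox2 (1.91) stand above 0 and Gata6 (-2.83) and Sox17 (-2.65) below it. Pou5f1 is negative on the other days, and at day 0 Nanog (-0.56) and Sox2 (-0.71) are negative too.

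The regulators of the hypoblast moved the other way. All 9 measured hypoblast regulators of 10 listed rose from day 0 to day 32, where 17.4% of all genes rose (limma, day and arm fit). The median change of this list was 3.79, beside 0.05 over all genes. Gata6, the zinc finger factor opposed to Nanog, rose by 4.93 ± 0.55 (adjusted p = 0.000482), Gata4, its relative, by 5.15 ± 0.60 (adjusted p = 0.000577), and Pdgfra, the receptor for the added PDGF, by 5.39 ± 0.67 (adjusted p = 0.000729). Without the feeder-free day 0 array 7 of the 9 passed. By day 7, 5 of the 9 had risen, where 6.74% of all genes had, and from day 7 to day 17, 1 of the 9 rose, where 9.1% of all genes did. At day 7 in the feeder arm Gata6 stood 2.14 above day 0 and Gata4 3.09 above it, on the same array on which Nanog stood at -0.06 from day 0. Of the others on that array Sox17, Dab2, Pdgfra and Foxq1 stood 1.01 to 1.78 above day 0, whereas Foxa2 stood at 0.16, Sox7 at -0.09 and Hnf4a at -0.75 from it. In the feeder-free arm at day 7 Gata6 stood 4.11 and Gata4 4.15 above day 0. The changes to day 7 were smaller in the feeder arm for 8 of the 9 regulators, where 11.2% of all genes had such a call: by -1.98 ± 0.19 for Gata6 (adjusted p = 4.87e-06), by -1.06 ± 0.19 for Gata4 (adjusted p = 0.000924) and by -3.48 ± 0.19 for Pdgfra (adjusted p = 2.74e-08).

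**Figure D3:**
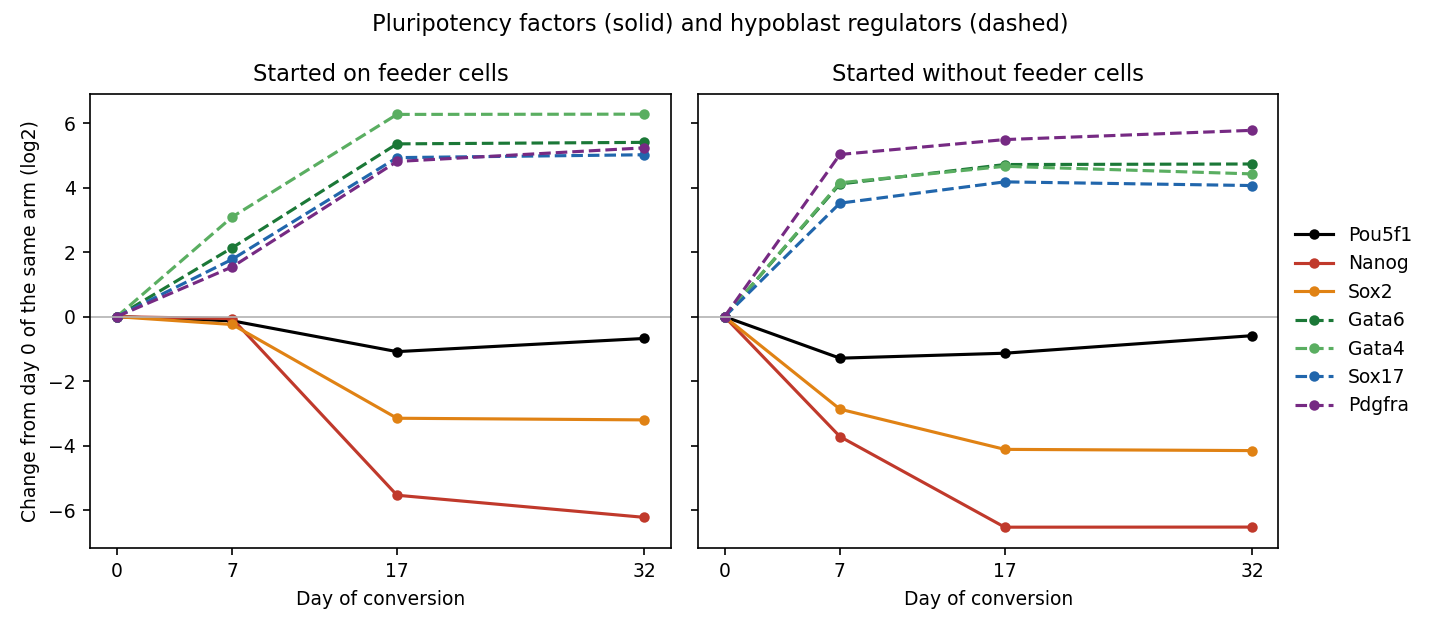
Change from day 0 of the same arm (log2, vertical axis) against day of conversion (horizontal axis), with the feeder arm on the left and the feeder-free arm on the right, as differences of day means. Solid lines show Pou5f1, Nanog and Sox2 and dashed lines the hypoblast regulators Gata6, Gata4, Sox17 and Pdgfra. In the feeder arm Nanog is at -0.06 at day 7 while Gata6 is already at 2.14, and at days 17 and 32 Pou5f1 lies closest to 0 in both arms.

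The Sox family, from which Oct4 takes its partners, was measured through 13 of 18 listed members besides Sox2. From day 0 to day 32, 4 rose and 4 fell, where 17.4% of all genes rose and 13.7% fell (limma). Sox17, a SoxF factor of the endoderm, rose by 4.38 ± 0.54 (adjusted p = 0.000716) and Sox7, of the same subgroup, by 2.32 ± 0.49 (adjusted p = 0.00703). Sox15 fell by 1.35 ± 0.31 (adjusted p = 0.00982) and the SoxC factor Sox11 by 1.34 ± 0.25 (adjusted p = 0.00377). The calls of Sox15 were lost without the feeder array of day 0 or that of day 32, and that of Sox7 without the feeder-free day 0 array, when 2 Sox genes rose. In single values Sox17 had 9.87 at day 0, 11.65 at day 7, 14.80 at day 17 and 14.89 at day 32 in the feeder arm. Without feeders it had 10.78 at day 0, 14.23 and 14.38 at day 7, 15.04 and 14.89 at day 17, and 14.90 and 14.80 at day 32. The change of Sox17 to day 7 was 1.74 ± 0.20 smaller in the feeder arm (adjusted p = 1.97e-05), and that of Sox7 2.83 ± 0.21 smaller (adjusted p = 3.87e-07).

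Of the POU family, the relatives of Oct4, 12 of 14 listed members were measured, and 1 rose and 1 fell from day 0 to day 32, where 17.4% of all genes rose and 13.7% fell. Pou3f4 rose by 0.56 ± 0.11 (limma adjusted p = 0.00533), although it lay below the 8.10 background on 8 of 11 arrays and reached at most 8.28, and Pou2f1, the widely expressed Oct1, fell by 0.63 ± 0.19 (adjusted p = 0.0369). Neither passed without the feeder-free day 0 array, and Pou2f1 did not pass without any 1 array of days 17 and 32 either. The family's median change was 0.05, as over all genes.

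Genes described as direct targets of these factors in mouse stem cells were measured in 6 of 12 listed cases. From day 0 to day 32, 4 fell and 0 rose, where 13.7% of all genes fell (limma). Gdf3, a TGF-beta family ligand, fell by 3.83 ± 0.72 (adjusted p = 0.00429), Lefty1, a Nodal antagonist, fell by 2.47 ± 0.75 (adjusted p = 0.034), Fgf4, the ligand that stem cells send to hypoblast precursors, by 2.19 ± 0.51 (adjusted p = 0.0115), and Spp1, osteopontin, by 1.73 ± 0.56 (adjusted p = 0.0446). Without the feeder-free day 0 array 1 of the 6 passed, Lefty1. The call of Lefty1 was in turn lost without the feeder array of day 0 or of day 32, the second feeder-free array of day 17 or the first of day 32. That of Spp1 was lost without any 1 of 8 arrays, all but those of feeder days 0 and 7 and the first feeder-free array of day 7. Zscan10, a zinc finger partner of Sox2 and Oct4, moved by -0.12 ± 0.23 (adjusted p = 0.757). At day 7, 5 of the 6 were higher in the feeder arm, where 20.4% of all genes were, with Spp1 3.35 ± 0.14 higher (adjusted p = 6.58e-10), Lefty1 2.95 ± 0.17 (adjusted p = 1.08e-08), Gdf3 2.21 ± 0.14 (adjusted p = 2.28e-08) and Fgf4 0.95 ± 0.12 (adjusted p = 2.6e-05). At day 0 Lefty1 was already 3.81 higher in the feeder arm and Spp1 0.52 higher, whereas Fgf4 was 2.10 lower and Gdf3 0.72 lower. These day 0 differences were not tested. In the change to day 7, 5 of the 6 were higher in the feeder arm, where 10.9% of all genes were. Lefty1 was lower, where 11.2% of all genes were. The late feeder values of Gdf3 lay below 8.10, so its change may be understated. Gdf3 had 11.69 at day 0, 11.65 at day 7, 7.12 at day 17 and 7.70 at day 32 in the feeder arm. Without feeders it had 12.42 at day 0, 9.40 and 9.48 at day 7, 8.46 and 8.74 at day 17, and 8.53 and 8.52 at day 32. From day 7 to day 17, 2 of the 6 fell, Lefty1 by 3.83 ± 0.66 (adjusted p = 0.0114) and Spp1 by 1.79 ± 0.50 (adjusted p = 0.0491), where 3.65% of all genes fell. The change of Lefty1 from day 0 to day 32 was -4.54 in the feeder arm and -0.93 in the feeder-free arm, a contrast that was not tested. Lefty1 took another course than Nanog early on: it stood above day 0 at day 7 by 1.25 in the feeder arm and by 2.11 in the feeder-free arm.

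Other factors of the naive state did not move as one group. Of 14 measured from a list of 21, 5 fell and 3 rose from day 0 to day 32, where 13.7% of all genes fell and 17.4% rose, and the list median was -0.70. Klf2 fell by 3.06 ± 0.49 (limma adjusted p = 0.00208), Tfcp2l1, a LIF-responsive factor, by 2.40 ± 0.48 (adjusted p = 0.00531), and Esrrb, an orphan nuclear receptor, by 1.59 ± 0.37 (adjusted p = 0.0112). Klf4, the relative of Klf2, rose by 0.89 ± 0.11 (adjusted p = 0.000775), and Stat3, the effector of the LIF in the conversion medium, by 0.89 ± 0.15 (adjusted p = 0.00263). By day 7, 2 of the 14 had fallen and 1 had risen, where 9.27% of all genes had fallen and 6.74% risen. Klf5 moved by 0.46 ± 0.22 (adjusted p = 0.158). Without the feeder-free day 0 array 1 of the 14 fell, Klf2, and 3 rose. In the change to day 7, 8 of the 14 were higher in the feeder arm and 3 lower, where 10.9% and 11.2% of all genes were. The change of Klf2 was 2.67 ± 0.22 higher in the feeder arm (adjusted p = 1.21e-06), that of Tfcp2l1 2.60 ± 0.21 higher (adjusted p = 7.64e-07) and that of Esrrb 2.08 ± 0.18 higher (adjusted p = 2.05e-06). Lin28a went the other way, from 11.98 at day 0 to 10.74 at day 7 in the feeder arm. Its feeder-free level went from 10.91 to a mean of 11.65.

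Genes described as regulators of Pou5f1 or Nanog were measured in 9 of 11 cases, of which 2 rose and 1 fell from day 0 to day 32, near the 17.4% and 13.7% of all genes that did, with a list median of -0.17. Dnmt3a, a de novo DNA methyltransferase, rose by 1.25 ± 0.11 (limma adjusted p = 0.000196). Nr2f2, COUP-TFII, a nuclear receptor that represses Oct4 in differentiating cells, rose by 1.22 ± 0.36 (adjusted p = 0.0304). Nr2f2 had 9.53 at day 0, 9.77 at day 7, 10.55 at day 17 and 10.08 at day 32 in the feeder arm. The feeder-free arm had 8.55 at day 0, 10.86 and 10.87 at day 7, 11.07 and 10.94 at day 17, and 10.47 and 10.39 at day 32. Its call was lost without the feeder-free array of day 0, the second of day 17 or either of day 32, or without the feeder array of day 32. Without the feeder-free day 0 array 1 of the 9 rose and 2 fell. Cdx2, the trophectoderm factor that represses Oct4 in the mouse, fell by 2.67 ± 0.60 (adjusted p = 0.00979). It stood at -3.64 from day 0 at day 7 in the feeder arm and at -1.43 in the feeder-free arm.

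**Figure D4:**
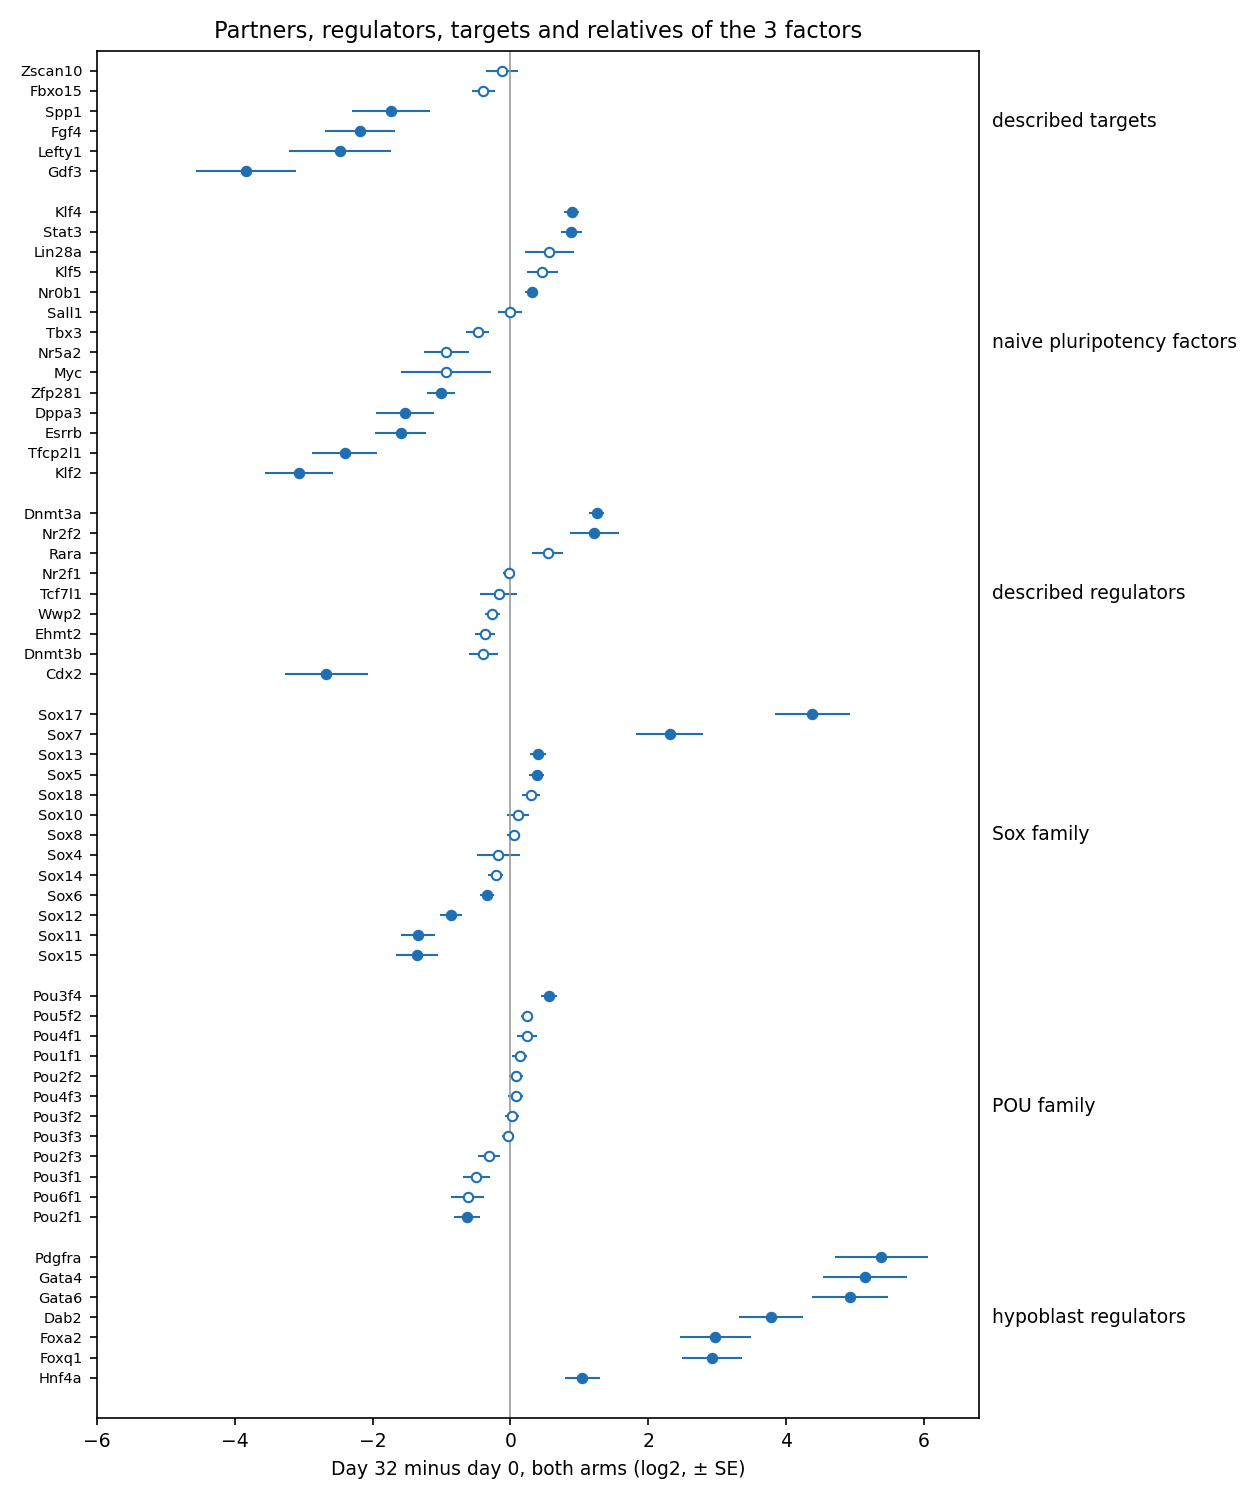
Day 32 minus day 0 from the fit over both arms (log2, horizontal axis, with SE) for the measured genes of 6 lists, 1 row per gene, filled where the limma adjusted p was under 0.05. Sox17 and Sox7, which are also hypoblast regulators, stand in the Sox family. Hypoblast regulators lie to the right, described targets to the left, and the POU family near 0.

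The genes whose levels were most like those of the 3 factors over the 11 arrays were taken by Pearson correlation among 5565 genes with a range of at least 1. For Nanog they were Tmc1 (r = 0.995), a channel protein of hair cells, Rhag (0.994), Sulf2 (0.992), a heparan sulfate sulfatase, Lef1 (0.991), a Wnt effector, and Tmem130 (0.991). For Sox2 they were Nefl (0.997), the light neurofilament protein, Tmc1 (0.995), Creg1 (0.992), Ly6c (0.991) and Kdm3a (0.99), a histone demethylase. For Pou5f1 they were Cd99l2 (0.959), Usp48 (0.959), a deubiquitinase, Mcm8 (0.951), a helicase, Top2a (0.944), a topoisomerase of dividing cells, and Upf3b (0.944). Nanog and Sox2 correlated at 0.987 with one another, and Pou5f1 at 0.439 with Nanog and at 0.477 with Sox2 (n = 11 arrays). These values describe arrays of 1 cell line that fall into separate high and low levels, and r is large for any gene with the same high days. Nefl, the closest to Sox2, had 13.13 at day 0, 12.77 at day 7, 7.94 at day 17 and 8.01 at day 32 in the feeder arm. In the feeder-free arm it had 13.97 at day 0, 9.71 and 10.14 at day 7, 8.18 and 7.77 at day 17, and 7.93 and 7.90 at day 32. Cd99l2, the closest to Pou5f1, had 12.29 at day 0, 11.88 at day 7, 10.83 at day 17 and 11.01 at day 32 in the feeder arm. In the feeder-free arm it had 13.65 at day 0, 11.37 and 11.58 at day 7, 12.18 and 12.23 at day 17, and 12.53 and 12.41 at day 32, so it shared the dip and the partial return.

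Markers of other cell types moved with the days and arms, and their part in the results above was not tested. The summed level of 11 fibroblast markers without Vim, as log2, was 14.29, 12.86, 12.56 and 12.08 on days 0, 7, 17 and 32 in the feeder arm, and 11.85 to 11.97 on all feeder-free arrays. The array is for rat and the feeder layer was of mouse cells, so these sums do not give the amount of feeder RNA. Of all 12 markers 3 to 5 lay below 8.10 on feeder arrays and 5 to 6 on feeder-free arrays. At day 7, 9 of the 12 were higher in the feeder arm, where 20.4% of all genes were. Periostin (Postn) had 11.79 at day 0 and 8.42 at day 7 in the feeder arm and at most 7.02 elsewhere. S100a4, on the same list, took another course in the feeder arm, with 7.47 at day 0, 10.11 at day 7, 11.10 at day 17 and 8.99 at day 32, and had at most 7.21 on feeder-free arrays. With Vim, the gene of vimentin, the sum of the 12 was 14.78 in the feeder arm and 14.05 to 14.07 in the feeder-free arm at day 7, and 15.44 in the feeder arm and 12.07 in the feeder-free arm at day 0. The sum of 9 trophoblast markers at day 7 was 14.59 in the feeder arm and 15.71 to 15.85 in the feeder-free arm. At day 0 it was 14.77 in the feeder arm and 14.01 in the feeder-free arm. At day 7, 7 of the 9 were lower in the feeder arm, where 20.8% of all genes were. The sum of 7 neuroectoderm markers, a lineage that also uses Sox2, was highest at day 0, with 13.75 in the feeder arm and 13.03 in the feeder-free arm, against 11.85 to 12.73 on all later arrays. Of the 7, 3 fell and 1 rose from day 0 to day 32, where 13.7% of all genes fell and 17.4% rose. Nes went up over these days, from 9.03 to 9.83 in the feeder arm and from 8.88 to a mean of 9.77 in the feeder-free arm. Germ cells also express Pou5f1. Of 9 germ cell markers 5 fell and 0 rose from day 0 to day 32, where 13.7% of all genes fell and 17.4% rose, and Tex15 fell by 5.22 ± 0.34 (limma adjusted p = 5.0e-05) to values below 8.10 on 4 of 11 arrays. Of 7 primed epiblast markers 3 fell and 1 rose over the same days, beside the same shares of all genes. The 1 that rose was Foxa2, which is also among the hypoblast regulators. Dppa3 is likewise counted both as a germ cell marker and as a naive factor.

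Over all genes, 4504 of 14506 (31%) changed from day 0 to day 32 in limma and 16% from day 0 to day 7. Without the feeder-free day 0 array these counts were 2536 and 684 genes. From day 7 to day 17, 12.8% changed, of which 1320 rose and 530 fell, a split of 633 and 628 with a further quantile normalization. From day 17 to day 32, 0 genes passed in the fit with terms for day and arm, 1057 had an unadjusted p under 0.05, and 934 passed with each day and arm as its own group. All arrays share 1 median, and their number limits the precision of every value.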

How the data were processed

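RNA of 11 samples was measured on 1-colour arrays. The authors deposited 1 table of log2 expression values, for which the submitters' processing notes name RMA without a version or options. Scanner files were not used here. All columns share a median, and the step that set it is not given in the sources used here. RMA draws low values together, so changes of dim genes are understated.

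Probe sets were named from the platform annotation: 15310 had 1 symbol, 323 several and 13581 none. A gene with several probe sets (527 genes) was represented by the one with the highest mean. RefSeq (GRCr8) served for names, promoters and pseudogenes. It lists 3 Pou5f1 pseudogenes, and probe sequences were not used here, so their transcripts could not be told apart from Pou5f1.

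limma 3.58.1 (R 4.3.3, lmFit and eBayes, Benjamini-Hochberg over all genes, called under 0.05) was run with terms for day and arm (6 residual degrees of freedom), and with each of 8 groups on its own (3). The residual of the first fit holds the gaps between replicates and any difference between the arms in their course. That of the second holds the gaps between replicates only. The calculation was tested on simulated data. The members and gene lists were chosen with earlier results of these data known. The text names the 3 members, the 5 genes most like each, and for each list and comparison the 4 called genes with the largest change, or the 2 largest where none was called, of which a part is printed, with Sox17, Gata6, Gata4, Pdgfra, Fgf4, Spp1, Klf4, Esrrb, Nr2f2 and Cdx2 always allowed. Sall4 and Nr6a1, also on that list, had no named probe set. Zscan10 falls outside the rule and was added after its values were seen. Alternatives tried were leaving out the 25% of genes with the lowest means, averaging a gene's probe sets, quantile normalization, centring, a robust variance fit with trend, other models, and leaving out each array. Figures were drawn with matplotlib 3.10.9.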

Additional observations from a re-analysis of the deposited data

Results flagged for a closer look

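The change from day 0 to day 7 differed between the arms in limma, feeder minus feeder-free, by 3.66 for Nanog, by 2.62 for Sox2 and by 1.16 for Pou5f1. The change from day 7 to day 17 differed by -2.66 for Nanog, by -1.66 for Sox2 and by -1.11 for Pou5f1. The 3 genes were chosen with these values in view, so the 6 differences are a description without a test and add no independent support. The differences share the day 7 arrays and rest on the single feeder array of each day.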

How the results depend on the processing

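The changes of the 3 genes from day 0 to day 32 within each arm kept their direction under another choice of probe sets, quantile normalization and centring. The largest shift was that of Pou5f1 in the feeder arm, which was -0.81 with quantile normalization and -0.68 without it. Leaving out either feeder-free day 32 array gave -6.84 to -6.20 for Nanog, -0.66 to -0.52 for Pou5f1 and -4.17 to -4.13 for Sox2. The 6 differences between the arms in the changes of the 3 genes kept their direction under every alternative that could be run. Without a single array that a difference needs it has no value. Counts over all genes depended on the model. From day 0 to day 7, 4887 genes passed with each day and arm as its own group, 1325 with the replicate number as a block, 805 with no term for arm, 5348 with the feeder-free arrays alone, and 684 (without the feeder-free array of day 0) to 4448 (without the feeder array of day 7) when 1 array was left out. From day 7 to day 17 these counts were 5347, 984, 266, 3458 and 364 to 2344, the lowest without the second feeder-free array of day 17. From day 17 to day 32 they were 934, 0, 0, 1062 and 0 to 232, the highest without the feeder array of day 7. From day 0 to day 32 the count was 3678 with the replicate block, 2573 with no term for arm and 2536 to 5528 when 1 array was left out. The differences between the arms kept their counts within 1.5 times the reported ones: 3097 to 3340 for the change to day 7, 2717 to 2852 for that to day 17 and 5614 to 6078 at day 7 when 1 array was left out, and 3068, 2845 and 5605 with the replicate block. Centring gave a split of 2169 up and 1477 down for the first, against 1575 and 1618 reported, and of 1331 and 1964 for the second, against 1551 and 1301. Deviations of same-numbered feeder-free arrays correlated at 0.03 (days 7 and 17), -0.20 (days 7 and 32) and -0.10 (days 17 and 32). The labels do not say whether equal numbers mark the same culture, and these values cannot decide it. The causes of the shifts between the alternatives were not tested.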
